A study of Mus musculus with 9 samples.

Results

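Klf9 regions at shared CpG-island promoters are stretches of mouse heart chromatin, precipitated with an antibody against Klf9, that overlap a CpG island and were assigned to 2 or more gene promoters. They were taken from the deposited table of merged regions as the rows with at least 1 CpG island and a promoter count of 2 or more. The rule selected 1164 of 5238 regions, which is 22.2%. The rule used the annotation of a region and neither its signal nor any RNA value. The 5238 regions also held 2845 with a single CpG-island promoter, 511 with a promoter and no island, and 718 with no promoter.

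Klf9 is a Krüppel-like factor, a zinc-finger transcription factor that recognises GC-rich and CACCC-like sequences and is induced by glucocorticoids. CpG islands are stretches of DNA rich in unmethylated CG dinucleotides that mark the promoters of many housekeeping genes. Where a pair of genes starts back to back from 1 island, the promoter is called bidirectional, and such pairs often encode parts of 1 complex or enzymes of basic metabolism. A factor bound in such a place lies beside more than 1 start site, so its position alone does not name a target gene.

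The chromatin came from hearts of mice of 12 to 14 weeks that had sham surgery or a constriction of the aorta (TAC), a model of pressure overload, for 2 weeks. Each condition had 1 library, and the number of hearts behind it, like the genotype, was not given in the sources used here. RNA was sequenced from hearts of mice that carry alphaMHC-Cre together with the transgene Klf9KI(Tg), called Klf9KI, and from hearts with alphaMHC-Cre alone, called Wt-Cre. The driver is active in cardiomyocytes, so both groups carry the Cre and the transgene is expected in that cell type. There were 3 hearts per genotype at 1, 4 and 8 weeks of age, 18 in all, and the labels name neither litter nor sex. The p-values therefore measure the spread between these hearts. The chromatin mice and the RNA mice were of different ages and treatments.

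The gene counts summed to between 12086856 and 32855383 per heart. Cardiomyocyte markers summed to between 23395 and 58679 CPM (counts scaled to library size), and hepatocyte markers stayed at or below 6.45 CPM. At 1 week, Klf9KI hearts 1 and 2 carried the female transcript Xist at 717 and 594 CPM and no Y-linked counts, and the other 16 hearts had Y-linked counts. Counts of called genes and pairs at 1 week, and some fold changes, are therefore given without those 2 hearts or with sex as a covariate. Differences within pairs, shares of the same sign and correlations were not rerun that way. Klf9, the transgene's product, stood at 193, 222 and 183 CPM in Klf9KI hearts, compared with 23.2, 21.9 and 17.2 in Wt-Cre at 1 week. It stood at 143, 179 and 167 against 113, 142 and 123 CPM at 4 weeks, a log2 fold change of 0.37 that did not pass the test (SE 0.14, edgeR adjusted p = 0.111). It stood at 108, 122 and 111 against 43.8, 65.6 and 40.6 CPM at 8 weeks. The values of the 2 genotypes did not overlap at any of these 3 ages. Klf9 is itself a gene of a shared region, chr19:23142692-23143157, listed with Mir1192, where the average Klf9 signal was 27.4 in sham and 23.6 in TAC. Whether the counts of Klf9 RNA tell the transgene from the endogenous gene is not given in the sources used here.

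Most shared regions sat beside the lowest number of promoters the rule allows. The promoter count was 2 in 1045 regions, 3 in 97, 4 in 19, 5 in 2 and 6 in 1. The deposited count was met by the listed genes whose start lay from 7500 bases before to 2500 bases after the region's given position in 1132 of 1164 regions, or 97.3%. This window is wide. With starts within 1 kb of that position, 670 regions (57.6%) had 2 or more, 451 had 1 and 43 had none. The regions were 412 bases long at the median, from 213 to 1311. Chromosome 11 held 125 of them, and on chromosome 17 they made up 31% of all Klf9 regions.

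The regions named 2641 gene symbols, of which 2447 matched the RNA tables, giving 2442 genes. Of these, 2178 were protein coding, 74 antisense, 50 lincRNA and 27 miRNA, and 352 genes were listed in more than 1 shared region. Genes of 1 region formed 2179 pairs. A listed gene can start far from its region, so a pair need not share a promoter. Distances of a region are given from a gene's start to the region's position, negative before the start. Of the 579 pairs with both starts within 1 kb of the region, 348 (60.1%) were divergent, 214 (37%) had overlapping 5′ ends and 17 ran on the same strand. The divergent starts lay 128 bases apart at the median, with quartiles of 69.8 and 225 bases. In 190 of 299 divergent pairs with a single region (63.5%) the region spanned both starts, and in 109 (36.5%) its centre lay between them. The centre was 108 bases from the midpoint of the starts at the median.

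**Figure D1:**
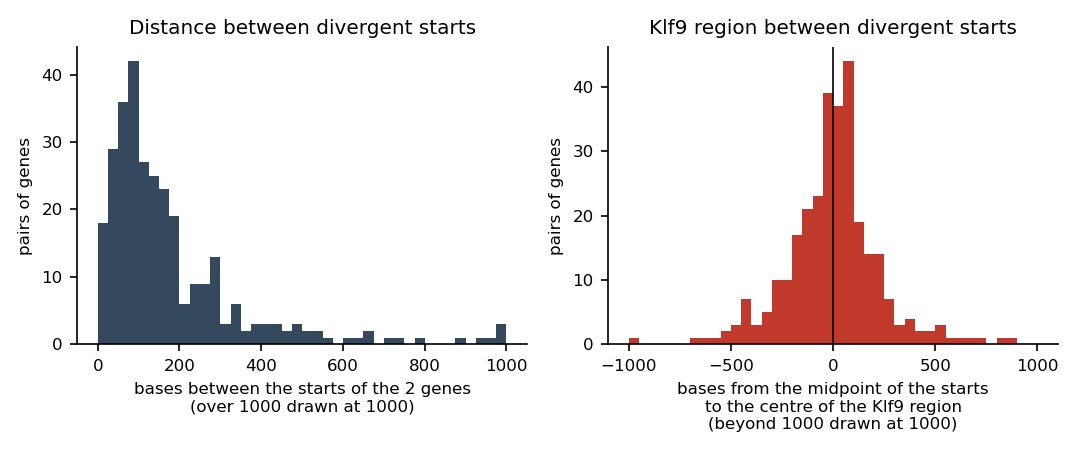
Divergent pairs of genes with both starts within 1 kb of a single shared Klf9 region. The left histogram counts pairs by the bases between the starts, and the right one counts them by the bases from the midpoint of the starts to the region's centre. Starts lie close together, with a median of 128 bases over all 348 divergent pairs within 1 kb, those with more regions included. In the drawn pairs region centres lie a median of 108 bases from the midpoint, and 36.5% lie between the starts.

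The spacers between divergent or overlapping starts lay inside the Klf9 region in some pairs and outside it in others. They are shown for pairs whose RNA or Klf9 signal is described further on, and those pairs were chosen after their values were seen. The sequences are RefSeq promoter sequence of build GRCm38.p6, between the RefSeq starts of the genes and up to 250 bases, read 5′ to 3′. Capitals mark the GC box GGGCGG, the CACCC-like letters CACNCCC and the CCAAT box, on either strand. A match describes letters and not a bound site.
Nmnat1/Lzic spacer, chr4:149485211-149485228, plus strand: ccggaagtgcgcgaatcc
Coa5/Unc50 spacer, chr1:37430104-37430138, plus strand: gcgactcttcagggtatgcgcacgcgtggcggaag
Psmb9/Tap1 spacer, chr17:34187331-34187555, plus strand: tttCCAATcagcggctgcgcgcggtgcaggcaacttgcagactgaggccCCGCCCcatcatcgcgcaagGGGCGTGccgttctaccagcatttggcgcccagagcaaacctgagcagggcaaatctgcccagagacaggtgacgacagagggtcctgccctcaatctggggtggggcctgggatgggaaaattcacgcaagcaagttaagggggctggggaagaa
Fahd1/Hagh spacer, chr17:24850303-24850489, plus strand: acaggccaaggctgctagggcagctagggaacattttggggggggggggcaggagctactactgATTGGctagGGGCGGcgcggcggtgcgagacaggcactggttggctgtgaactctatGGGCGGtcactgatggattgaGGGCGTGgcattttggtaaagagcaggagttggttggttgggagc
Rom1/Eml3 spacer, chr19:8929413-8929662, plus strand: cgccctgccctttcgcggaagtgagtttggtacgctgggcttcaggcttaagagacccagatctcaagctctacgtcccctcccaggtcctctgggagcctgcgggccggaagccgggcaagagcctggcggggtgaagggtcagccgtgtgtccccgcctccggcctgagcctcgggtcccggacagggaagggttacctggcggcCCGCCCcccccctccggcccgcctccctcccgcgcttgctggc
Nup88/Rpain spacer, chr11:70969974-70970198, plus strand: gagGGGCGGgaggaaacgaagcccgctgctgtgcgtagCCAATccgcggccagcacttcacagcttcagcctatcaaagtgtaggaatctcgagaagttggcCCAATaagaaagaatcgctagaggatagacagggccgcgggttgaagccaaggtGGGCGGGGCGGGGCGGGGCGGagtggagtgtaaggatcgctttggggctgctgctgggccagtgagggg
Acot8/Zswim3 spacer, chr2:164804882-164805113, plus strand: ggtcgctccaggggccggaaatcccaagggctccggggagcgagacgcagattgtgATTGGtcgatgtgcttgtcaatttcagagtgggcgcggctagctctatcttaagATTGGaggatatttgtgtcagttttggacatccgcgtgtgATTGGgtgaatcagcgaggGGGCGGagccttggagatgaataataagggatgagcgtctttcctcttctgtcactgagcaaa

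The spacers of Nmnat1/Lzic, Coa5/Unc50, Psmb9/Tap1, Rom1/Eml3 and Acot8/Zswim3 lay wholly inside their Klf9 region. Of the 225 bases between Nup88 and Rpain 151 lay inside, and of the 187 bases between Fahd1 and Hagh 48 did. Some spacers that are not printed were read in the same way. Those of Polr2l/Tspan4, Sgsm2/Tsr1, Hadha/Hadhb, Abhd14a/Abhd14b and Mcm7/Ap4m1 had 0 of the bases read inside their region. Slc39a7/Rxrb had all 121 inside, and Ptcd3/Polr1a had 82 of 250. The Nup88/Rpain spacer held 5 GGGCGG matches, 4 of them in 1 overlapping run, and 2 CCAAT boxes. The Acot8/Zswim3 spacer held 3 CCAAT boxes and 1 GGGCGG. The short spacers of Nmnat1/Lzic, with 18 bases, and Coa5/Unc50, with 35, held none of the 3 motifs.

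Windows of 300 bases around the RefSeq start, 250 before and 50 after, were found for 1961 of 2441 genes of shared regions (80.3%), or 2427 windows. GGGCGG was present on either strand in 67.7% of these windows, against 35.7% of the 32851 windows of the whole promoter table. CACNCCC, which can overlap a GC box, was present in 39.4% against 29.2%. CCAAT was present in 38.7% against 37.4%. The ETS-like letters CCGGAA were present in 32.8% against 14.9%. TATAAA was present in 6.02% against 13.6%. The median GC content was 62.3% against 52.7%, and the median number of CpG was 23 against 7. The rule asked for a CpG island, so GC-rich letters were favoured by the choice of regions. Windows were found for 79.3% of the genes of other Klf9 regions, just under the 80% asked here, so their values are a description alone. In these windows GGGCGG was present in 66.4%, CACNCCC in 43.4%, CCAAT in 35.7%, CCGGAA in 25% and TATAAA in 7.18%. Their median GC content was 61.7% and their median number of CpG 21, so GC-rich letters were not particular to shared regions.

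Klf9 signal at shared promoters was close in the sham and TAC libraries and slightly lower in TAC for most regions. The average value of a region, the authors' signal over its length, was 25.3 at the median in sham (quartiles 20.6 and 33.6, range 8.12 to 115). In TAC it was 23.5 (quartiles 18.3 and 31.2, range 5.93 to 117.4). The peak value, the highest signal in the region, was 34 at the median in sham and 32 in TAC. The median log2 ratio of TAC to sham was −0.14 for the average value and −0.08 for the peak value. With 1 library per condition these differences have no replicate check and no test. How the authors scaled the libraries against each other is not given in the sources used here, so a shift of this size cannot be told apart from scaling. Relative to the median ratio of all Klf9 regions the shift was −0.03.

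The average value was lower in TAC in 765 regions (65.7%), higher in 391 (33.6%) and equal in 8. It was at least 1.5-fold higher in TAC in 40 regions (3.44%) and at least 1.5-fold lower in 140 (12%). The authors marked 834 regions (71.6%) as present in both libraries, 248 (21.3%) in sham alone and 82 (7.04%) in TAC alone. Regions with a single CpG-island promoter had medians of 24.8 in sham and 23.2 in TAC and a median log2 ratio of −0.11. They were present in both libraries in 68.3% and in TAC alone in 10.6%. Across the 1164 regions the log2 sham and TAC averages had a Pearson's r of 0.77, against 0.69 across the 4074 other regions. These values rest on the same 2 libraries and are descriptions. The number of promoters made little difference until it reached 4. Regions with 2 promoters had medians of 25.3 and 23.6, regions with 3 had 25.1 and 22.4, and the 22 regions with 4 or more had 24 and 19, with a median log2 ratio of −0.31.

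**Figure D2:**
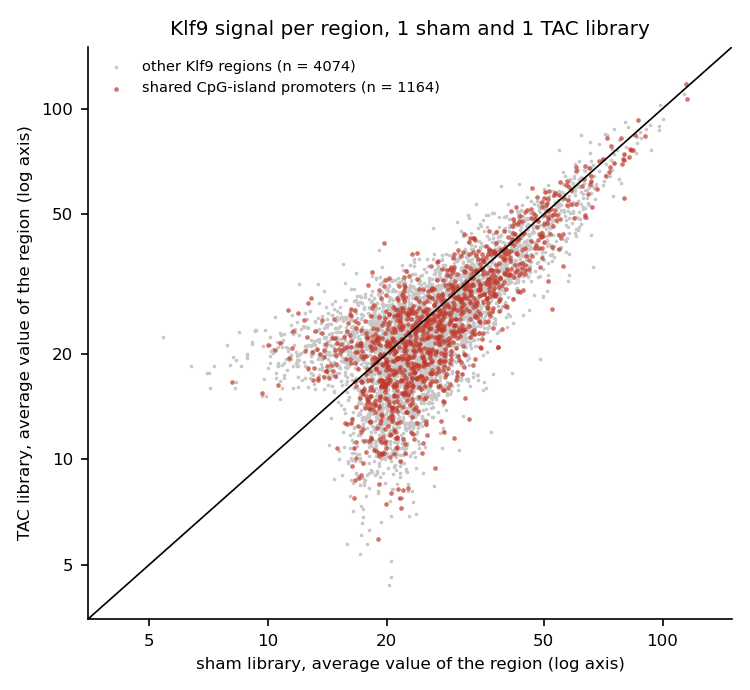
Average Klf9 signal of each region in the sham library (horizontal, log axis) and the TAC library (vertical, log axis), in the authors' signal units. Points are single regions, with the 1164 shared CpG-island promoter regions in colour over the 4074 others in grey. Both sets follow the diagonal, with r of 0.77 and 0.69.

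The highest sham signal stood on chromosome 19 at chr19:5731505-5732134, just before Sssca1, with Fam89b and Ehbp1l1 among its promoters. Its average was 115 in sham and 107 in TAC, and its peak was 240 and 218. The next stood in a histone gene cluster at chr13:23535029-23535517, beside Hist1h3g, with averages of 114.8 and 117.4. The region between Coa5, an assembly factor of cytochrome oxidase, and Unc50, at chr1:37429788-37430397, had 90.3 and 83.8. That of Klc4, Cul7 and Mrpl2 at chr17:46650290-46650879 had 86.6 and 92.7. The region of Pigp and Ttc3, at chr16:94370684-94371469, had 85.2 and 84.0. Those of Atad3a and 2610204G22Rik (84.2 and 76.5) and Ewsr1 and Rhbdd3 (82.8 and 76.6) were also among the strongest. All 7 of these regions were present in both libraries, and their averages differed by at most 0.14 on the log2 scale.

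The regions that differed most between the libraries were weaker ones. The region of Cbl, a ubiquitin ligase of receptor signalling, and Ccdc153 at chr9:44233577-44233848 went from an average of 12.9 in sham to 28.8 in TAC, a log2 ratio of 1.16. That of Ptcd3, a mitochondrial translation factor, and Polr1a, the large subunit of RNA polymerase I, at chr6:71908633-71908884 went from 12.6 to 27.9. Both were present in TAC alone. The Fam64a region went from 19.7 to 41.3, that of Atpif1 and Dnajc8 from 18.4 to 34.2, and that of Rassf1 and Hyal2 from 17.9 to 31.4. In the other direction, the region of Nup88, a nuclear pore protein, and Rpain at chr11:70970048-70970347 went from 29.6 to 11.5, a log2 ratio of −1.36. Abhd14a and Abhd14b went from 32.4 to 13.0, Znhit2 with Mrpl49 from 27.9 to 12.0, Rplp0 from 27.4 to 12.9, and Acot8 with Zswim3 from 31.6 to 15. These 5 were present in sham alone.

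Regions with the most promoters held clusters of small RNA genes or dense gene neighbourhoods. The region with 6 promoters, at chr4:132308526-132308913, lay at Snhg12, the host of several small nucleolar RNAs, and had averages of 20.7 in sham and 14.1 in TAC. The Mcm7 region, with Mir25, Mir93 and Mir106b, had 33.3 and 23.3. The region of Slc39a7, Rxrb and Ring1 had 19.5 and 10.4, and that of Dalrd3 with Mir191 and Mir425 had 19.1 and 8.5. All 4 were lower in TAC, and 3 of them were present in sham alone.

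Whether the genes of a shared region move together was read from the RNA of Klf9KI and Wt-Cre hearts, each age tested alone over all genes with edgeR's quasi-likelihood test. A gene is called when its Benjamini-Hochberg adjusted p is under 0.05. At 1 week 40 of 2115 tested genes of shared regions were called (1.89%, against 1.68% of all genes tested), 9 higher and 31 lower in Klf9KI hearts (background 0.651% higher and 1.03% lower). At 4 weeks 246 of 2033 were called (12.1%, against 13.4%), 81 higher and 165 lower (background 6.65% and 6.75%). At 8 weeks 175 of 2029 were called (8.62%, against 10.5%), 54 higher and 121 lower (background 4.96% and 5.52%). The share called was thus close to the background at each age, and more genes were lower than higher in each. Genes of other Klf9 regions also had more lower than higher calls, 69 and 19, 317 and 161, and 208 and 168, whereas genes without a Klf9 region had 63 and 75, 498 and 723, and 470 and 497. These counts were not compared by a test.

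The counts rested on few hearts. At 1 week 2 genes of shared regions stayed called with sex as a covariate, Klf9 (log2 fold change 3.14, edgeR adjusted p = 8.37e-07) and Sort1 (−1.39, adjusted p = 0.0102). Without the Xist-carrying hearts 3 did, and both fits rest on 1 Klf9KI heart. The count at 4 weeks was 92 without Klf9KI heart 1, 115 without heart 2 and 121 without heart 3. At 8 weeks it was 44 without Wt-Cre heart 2, 47 without Wt-Cre heart 1, 77 without Klf9KI heart 1, 78 without Wt-Cre heart 3 and 271 without Klf9KI heart 2.

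Genes that share a region moved in the same direction little more often than not. Both genes were tested in 1569, 1424 and 1425 pairs at 1, 4 and 8 weeks. The log2 fold changes had the same sign in 50%, 54.1% and 52.4% of pairs, and their Pearson's r across pairs was 0.07, 0.12 and 0.10. The same shares were 51.4%, 53.9% and 52.7% among adjacent genes that shared no Klf9 region, with r of 0.04, 0.14 and 0.09. Pairs with both starts within 1 kb had 50%, 54.2% and 55.1% and r of 0.06, 0.19 and 0.19. Divergent pairs among these had 48.2%, 52.2% and 55.6% and r of 0.03, 0.14 and 0.18. Divergent starts within 1 kb with no shared Klf9 region had 56.5%, 58.9% and 49.4% and r of 0.11, 0.29 and 0.10. The genes of a pair were measured in the same hearts and pairs can share a gene, so these shares carry no p and no set was tested against another.

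**Figure D3:**
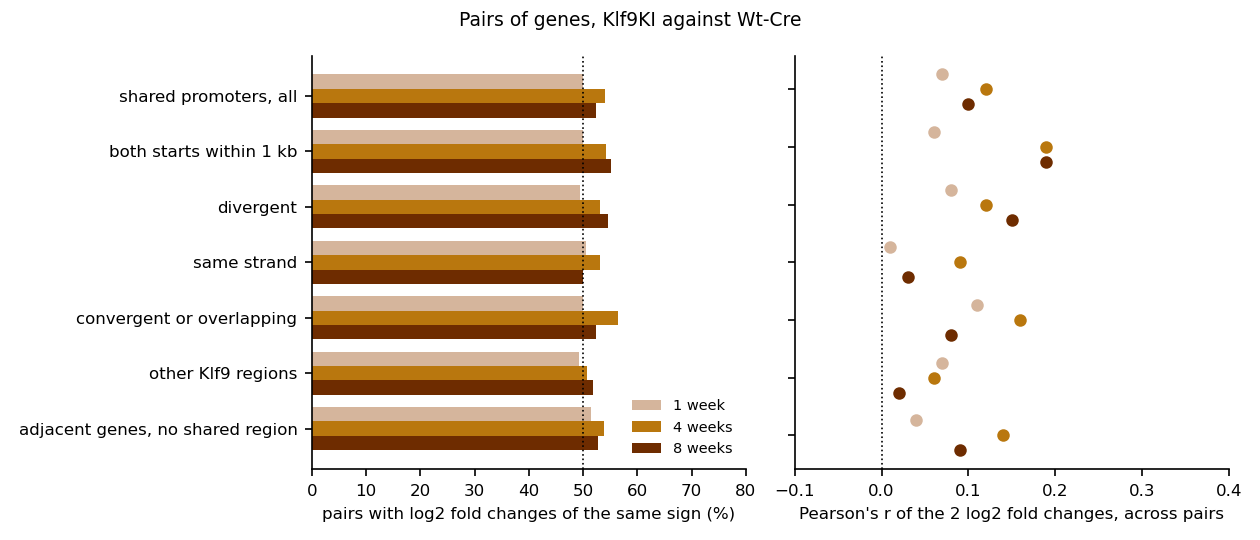
Share of pairs of genes with log2 fold changes of the same sign (left, %, dotted line at 50) and Pearson's r of the paired log2 fold changes (right, dotted line at 0), by kind of pair and age. For all pairs of shared promoters the shares lie between 50% and 54.1%, beside 51.4% to 53.9% for adjacent genes without a shared region.

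Pairs with both genes called were few. There were 3 at 1 week, 32 at 4 weeks and 16 at 8 weeks, or 0.191%, 2.25% and 1.12% of pairs. Among adjacent genes without a shared region the shares were 0.0218%, 2.61% and 1.51%. Both genes were called in the same direction in 2, 24 and 14 pairs and in opposite directions in 1, 8 and 2. Adjacent genes without a shared region had 1, 240 and 127 such pairs in the same direction and 2, 89 and 62 in opposite directions. Pairs of other Klf9 regions had 1, 11 and 11, and 0, 10 and 5. Of the same-direction pairs at shared regions, both genes were lower in 1, 21 and 11 and both higher in 1, 3 and 3. Among adjacent genes both were lower in 0, 93 and 65 and higher in 1, 147 and 62. Far more often a single gene of the pair was called, in 63, 296 and 208 pairs. These are 4.02%, 20.8% and 14.6%, against 3.2%, 22% and 18.4% among adjacent genes. No test compared these counts. Bodies of the genes overlapped in 10 of the 32 pairs at 4 weeks and 7 of the 16 at 8 weeks. Whether counting used the strand is not given in the sources used here, so reads of such pairs may be shared. The count of pairs at 4 weeks was 6 without Klf9KI heart 1, 9 without heart 3 and 13 without heart 2. At 8 weeks it was 1 and 2 without Wt-Cre heart 2 and heart 1, 4 without Klf9KI heart 1, 5 without Wt-Cre heart 3 and 40 without Klf9KI heart 2.

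A call in 1 gene and not in its neighbour is no test of the difference between them, so the difference in log2 CPM within each pair was tested directly with limma. The response differed within 57 pairs at 1 week (3.63%), 209 at 4 weeks (14.7%) and 116 at 8 weeks (8.14%). Over all pairs that share any Klf9 region, these pairs included, the shares were 3.59%, 15.8% and 9.19%. Pairs of other Klf9 regions had 3.54%, 17.3% and 10.5%, and the shares were not compared by a test. Of the pairs with a single called gene the difference passed in 32 of 63, 163 of 296 and 83 of 208.

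**Figure D4:**
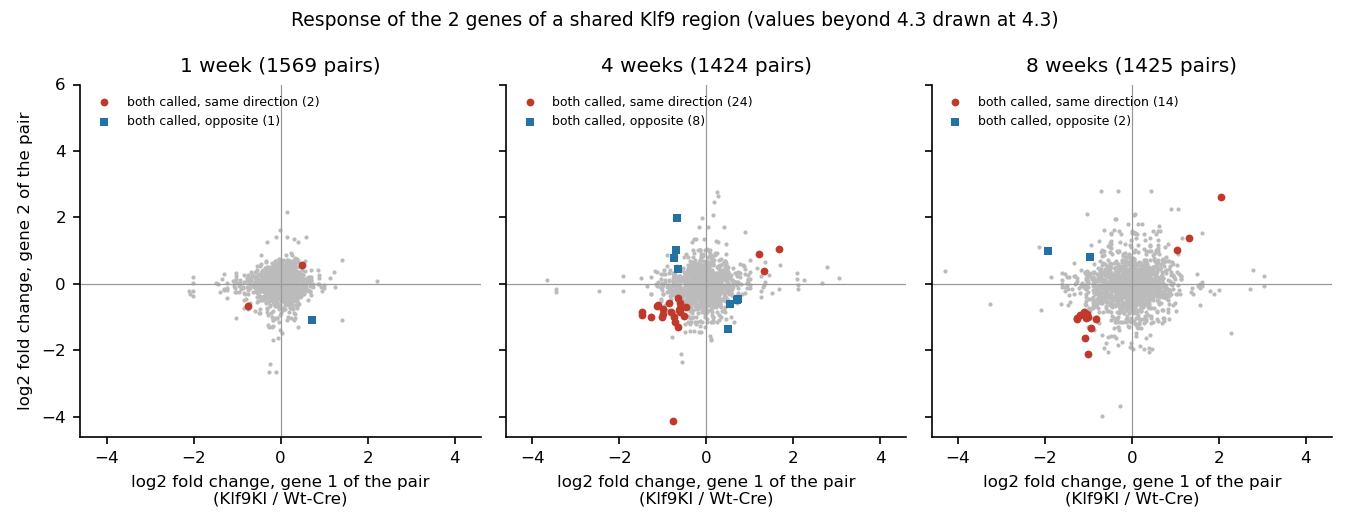
Log2 fold change (Klf9KI over Wt-Cre) of the genes of each pair at a shared Klf9 region at 1, 4 and 8 weeks, with values beyond 4.3 drawn at the edge. Grey points are pairs without both genes called, and coloured points are pairs with both called in the same direction (2, 24 and 14) or in opposite directions (1, 8 and 2). The clouds show no clear diagonal.

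Among tight divergent pairs, Nmnat1 and Lzic fell together at 4 weeks. Nmnat1 makes NAD in the nucleus, Lzic carries a domain related to a beta-catenin inhibitor, and their deposited starts lie 27 bases apart inside the region chr4:149484950-149485513 (average 49.3 in sham, 43.2 in TAC). Nmnat1 stood at 10.2, 11.9 and 10.5 CPM in Klf9KI hearts, compared with 23.9, 19.4 and 22.8 in Wt-Cre at 4 weeks. Lzic stood at 15.1, 16.8 and 13.5 against 36.7, 33 and 20.5 CPM. The genotypes did not overlap for either gene. The log2 fold changes were −1.02 (SE 0.16, edgeR adjusted p = 0.00186) and −0.99 (SE 0.21, adjusted p = 0.00992), and the difference within the pair was −0.06 (SE 0.24, limma adjusted p = 0.884). At 8 weeks Nmnat1 fell by 1.07 on the log2 scale (adjusted p = 0.00907), and Lzic was −0.80 (adjusted p = 0.118). The call of Lzic at 4 weeks was lost without Klf9KI heart 1 or 3.

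Both genes of 7 pairs were called at 4 and at 8 weeks, and each gene kept its own direction between the ages. They are 21.9% of the 32 pairs at 4 weeks and 43.8% of the 16 at 8 weeks. In a pair not reported here the genes were called in opposite directions at both ages. The 7 pairs were picked after their values were seen. Hadha and Hadhb encode the subunits of the mitochondrial trifunctional protein, which carries out steps of the beta-oxidation of long fatty acids, and their deposited starts lie 86 bases apart beside the region chr5:30154426-30154812 (averages 29.7 and 27). At 4 weeks Hadha stood at 541, 656 and 546 CPM in Klf9KI hearts, compared with 1446, 1383 and 980 in Wt-Cre. Hadhb stood at 651, 756 and 614 against 1168, 1189 and 881 CPM. The genotypes were apart for both genes. Hadha fell by 1.13 at 4 weeks (SE 0.17, edgeR adjusted p = 0.00143) and by 1.18 at 8 weeks (SE 0.21, adjusted p = 0.00631). Hadhb fell by 0.68 (SE 0.16, adjusted p = 0.0146) and by 0.94 (SE 0.21, adjusted p = 0.0165). The calls of Hadhb were lost without Klf9KI heart 1 or 3 at 4 weeks, and without Klf9KI heart 1 or Wt-Cre heart 1 or 2 at 8 weeks.

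Ttc3, a ubiquitin ligase, and Pigp, a subunit of the first enzyme of GPI anchor synthesis, share a region with one of the strongest Klf9 signals. Ttc3 stood at 43.6, 37.8 and 41.4 CPM in Klf9KI hearts, compared with 130, 125 and 84.1 in Wt-Cre at 4 weeks, and Pigp at 22.2, 20.2 and 18.6 against 39.8, 29.6 and 40.1 CPM. Ttc3 fell by 1.47 at 4 weeks (adjusted p = 0.000246) and by 0.94 at 8 weeks (adjusted p = 0.0121). Pigp fell by 0.84 (adjusted p = 0.00513) and by 1.33 (adjusted p = 0.0136). Ttc3 also fell at 1 week, by 0.91 (adjusted p = 0.000768). With sex as a covariate its log2 fold change was −0.84 (adjusted p = 0.118), in a fit that rests on 1 Klf9KI heart. The calls of Ttc3 and Pigp at 8 weeks were lost without Wt-Cre heart 1 or 2, and that of Ttc3 also without Klf9KI heart 1. Their bodies overlap at the 5′ ends, so strand matters to their counts. The genotypes did not overlap for Ttc3 or Pigp at 4 or 8 weeks.

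Slc25a11, the mitochondrial 2-oxoglutarate carrier, and Eno3, the muscle enolase, lie 9723 bases apart and share the region chr11:70653640-70654234. The region lies −6897 bases from the start of Slc25a11 and −3277 from that of Eno3, but 714 from that of Pfn1. Neither Slc25a11 nor Eno3 thus starts within 1 kb of it. Slc25a11 was also listed with chr11:70646754-70647200, which lies 63 bases from its start. At 8 weeks Slc25a11 stood at 416, 270 and 324 CPM in Klf9KI hearts, compared with 680, 774 and 660 in Wt-Cre. Eno3 stood at 741, 626 and 525 against 2303, 2195 and 1394 CPM. Neither overlapped between genotypes. Slc25a11 fell by 0.61 at 4 weeks (adjusted p = 0.0101) and by 1.07 at 8 weeks (adjusted p = 0.0112), and Eno3 by 0.86 (adjusted p = 0.00116) and 1.64 (adjusted p = 0.00265). The calls of Slc25a11 were lost without Klf9KI heart 1 or 3 at 4 weeks and Wt-Cre heart 1 or 2 at 8 weeks, and those of Eno3 under no alternative run. The same region lists Pfn1, the actin-binding profilin, at 196, 160 and 172 against 134, 136 and 148 CPM at 8 weeks (log2 fold change 0.33, adjusted p = 0.273). The response of Pfn1 differed from that of Eno3 by 1.95 at 8 weeks (SE 0.26, limma adjusted p = 0.000772) and by 1.09 at 4 weeks (limma adjusted p = 0.000523).

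Trpm4, a calcium-activated cation channel, and Hrc, a calcium-binding protein of the sarcoplasmic reticulum, start 1510 bases apart. Hrc stood at 174, 199 and 159 CPM in Klf9KI hearts, compared with 772, 876 and 630 in Wt-Cre at 8 weeks, and Trpm4 at 13, 13.7 and 21.4 against 35, 26.6 and 34.4 CPM. Hrc fell by 1.3 at 4 weeks (adjusted p = 0.000353) and by 2.1 at 8 weeks (adjusted p = 0.000244), and Trpm4 by 0.66 (adjusted p = 0.0122) and 1.0 (adjusted p = 0.0269). The potassium channel gene Kcnk3 and the overlapping Gm9899 also fell at both ages, by 0.63 and 0.80 at 4 weeks and by 1.02 and 0.99 at 8 weeks. The calls of Hrc passed under every alternative run, and those of Trpm4 were lost without Klf9KI heart 1 or 2 at 4 weeks and on leaving out Klf9KI heart 1 or any 1 Wt-Cre heart at 8 weeks. Kcnk3 lost its call without Klf9KI heart 1 or 3 at 4 weeks and Wt-Cre heart 1 at 8 weeks, and Gm9899 on leaving out Klf9KI heart 1 or any 1 Wt-Cre heart at 8 weeks. Cardiomyocyte markers, summed over 7 genes, ranged from 43099 to 47704 CPM in Klf9KI hearts, compared with 49982 to 58679 in Wt-Cre at 4 weeks, with 3 of 7 lower, and from 26735 to 31401 against 34616 to 38054 CPM at 8 weeks, with 2 of 7 lower. In whole hearts fewer cells of a type and less RNA per cell cannot be told apart. Atrial markers, summed over 4 genes, ranged from 1497 to 2573 CPM in Klf9KI hearts, compared with 35 to 80.5 in Wt-Cre at 4 weeks, and from 1719 to 2517 against 42.4 to 197 CPM at 8 weeks, and of the 2 that were tested 1 was higher at each age. At 1 week they overlapped, at 52.3 to 1077 against 614 to 2723 CPM. Smooth muscle markers, summed over 3 genes, ranged from 110 to 153 against 376 to 1070 CPM at 4 weeks and, with overlap, from 105 to 206 against 187 to 534 CPM at 8 weeks, with 1 of 3 lower at each age. The part of these shifts in the changes of metabolic, channel, calcium and muscle genes was not tested.

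The region chr14:55591481-55591835 is listed with Psme1 and Psme2, which encode the alpha and beta subunits of the proteasome activator induced by interferon, and with Emc9, a subunit of the ER membrane complex. Psme1 lies 13163 bases from the region's position, so it is a listed neighbour rather than a gene that starts there. Psme1 stood at 72, 53.9 and 64 CPM in Klf9KI hearts, compared with 116, 99.5 and 102 in Wt-Cre at 1 week, and Psme2 at 30.9, 25 and 23 against 41.3, 40.5 and 42.3 CPM. Psme1 fell at each age, by 0.74 (adjusted p = 0.0051), 0.99 (adjusted p = 0.000822) and 1.27 (adjusted p = 0.00521). Psme2 fell at 1 week by 0.66 (adjusted p = 0.0262) and at 8 weeks by 1.03 (adjusted p = 0.0274), but at 4 weeks it stood at 19.2, 19.2 and 20.7 against 24.4, 15.1 and 21.7 CPM, with overlap. There the response of Psme1 differed from that of Psme2 by −0.98 (SE 0.22, limma adjusted p = 0.0104). Emc9 fell by 0.76 at 4 weeks (adjusted p = 0.0172) and fell by 1.06 at 8 weeks (adjusted p = 0.032). The body of Emc9 overlaps that of Psme1. The calls of Emc9 were lost on leaving out any 1 Klf9KI heart at 4 weeks and on leaving out Klf9KI heart 1 or any 1 Wt-Cre heart at 8 weeks, and that of Psme2 at 8 weeks on leaving out any 1 Wt-Cre heart. The 1-week calls of Psme1 and Psme2 were lost with sex as a covariate, with Psme1 then at −0.72 (adjusted p = 0.234).

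Tap1 and Psmb9, which transport and cut peptides for antigen presentation and are induced by interferon, rose together at 4 weeks. They start 211 bases apart inside chr17:34187216-34187956, where the average signal was 43.3 in sham and 47.8 in TAC. Tap1 stood at 51.9, 35.8 and 48.2 CPM in Klf9KI hearts, compared with 18.8, 11.5 and 12.6 in Wt-Cre. Psmb9 stood at 13.5, 11.4 and 15.1 against 6.85, 4.39 and 8.03 CPM. The genotypes were apart for both. Tap1 rose by 1.66 (SE 0.21, edgeR adjusted p = 0.000494) and Psmb9 by 1.05 (SE 0.24, adjusted p = 0.0137). At 8 weeks Tap1 rose by 0.91 (adjusted p = 0.0378), and Psmb9 overlapped at 11.9, 8.32 and 9.24 against 8.01, 6.68 and 9.67 CPM. Their bodies overlap. The call of Psmb9 at 4 weeks was lost without Klf9KI heart 1 or 3, and that of Tap1 at 8 weeks on leaving out any 1 heart other than Klf9KI heart 2. The overlapping pair of Zmynd15 and the chemokine Cxcl16 also rose at 4 weeks, by 1.21 (adjusted p = 0.0119) and 0.91 (adjusted p = 0.0276), with Zmynd15 not called without Klf9KI heart 3 and Cxcl16 not called without Klf9KI heart 1 or 3 or Wt-Cre heart 1 or 2. Macrophage markers, summed over 4 genes, ranged from 156 to 240 CPM in Klf9KI hearts, compared with 113 to 136 in Wt-Cre at 4 weeks, with 1 of 4 higher, and their part in these rises was not tested.

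At 8 weeks both genes rose in 3 pairs, and the rule for named pairs took Dok1 with Loxl3 and Col4a1 with Col4a2. Dok1, an adaptor of tyrosine kinase signalling, and Loxl3, a lysyl oxidase-like enzyme that cross-links collagen and elastin, start 702 bases apart at chr6:83033385-83033655 (averages 18.1 and 15.8). Dok1 stood at 10.1, 11.2 and 7.08 CPM in Klf9KI hearts, compared with 1.9, 2.79 and 2.15 in Wt-Cre, and Loxl3 at 30.3, 38.9 and 34.8 against 5.97, 5.2 and 5.83 CPM. The genotypes did not overlap. Dok1 rose by 2.06 (SE 0.35, edgeR adjusted p = 0.0048) and Loxl3 by 2.61 (SE 0.22, adjusted p = 0.000132), and both calls passed under every alternative run. Neither was called at 4 weeks, with Dok1 at 0.77 and Loxl3 at 0.60.

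Col4a1 and Col4a2, the collagen IV chains of the basement membrane, start 21 bases apart and share chr8:11312699-11312921 (averages 14.0 and 17.9). Col4a1 stood at 775, 1579 and 545 CPM in Klf9KI hearts, compared with 412, 414 and 288 in Wt-Cre at 8 weeks. Col4a2 stood at 592, 1062 and 427 against 311, 299 and 226 CPM. Klf9KI heart 2 was the highest for both, and the genotypes did not overlap. They rose by 1.38 (SE 0.35, adjusted p = 0.0304) and 1.32 (SE 0.31, adjusted p = 0.022), and the difference within the pair was −0.03 (SE 0.19, limma adjusted p = 0.95). Both calls were lost on leaving out Klf9KI heart 1 or any 1 Wt-Cre heart, and the annotated bodies overlap. Fibroblast markers, summed over 4 genes, ranged from 780 to 1328 CPM in Klf9KI hearts, compared with 398 to 494 in Wt-Cre at 8 weeks, with 1 of 4 higher. Their part in the rise of Loxl3 and the collagen genes was not tested.

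**Figure D5:**
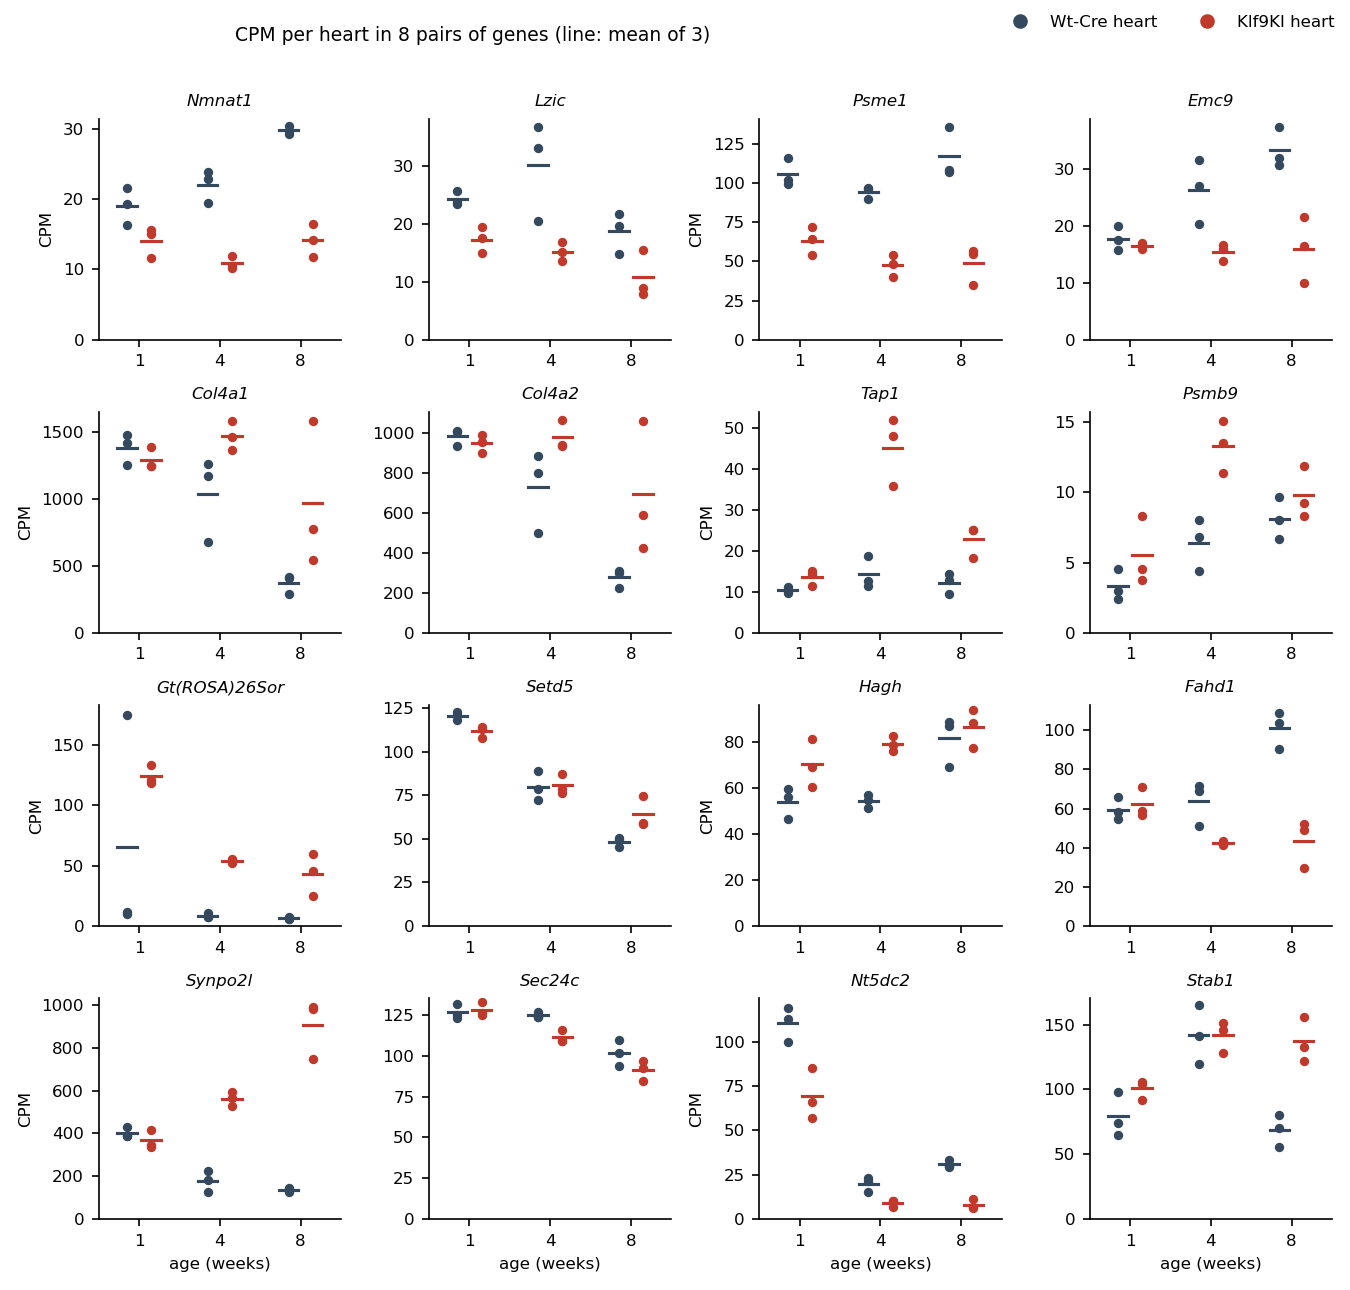
CPM (vertical, linear from 0) of the genes of 8 pairs that share a Klf9 region, by age in weeks, with a point for each heart and a bar at the mean of 3. Nmnat1 and Lzic, Psme1 and Emc9, Col4a1 and Col4a2, and Tap1 and Psmb9 move the same way at the ages where both are called. Gt(ROSA)26Sor and Setd5, Hagh and Fahd1, Synpo2l and Sec24c, and Nt5dc2 and Stab1 do not.

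Other neighbours parted. Hagh, the glyoxalase that hydrolyses lactoylglutathione, and Fahd1, a mitochondrial acylpyruvase, share chr17:24850073-24850350, whose signal was 22.6 in sham and 13.7 in TAC. At 4 weeks Hagh stood at 78.7, 82.4 and 75.8 CPM in Klf9KI hearts, compared with 54.6, 51.2 and 56.9 in Wt-Cre, and Fahd1 at 43.3, 41.9 and 41.4 against 71.5, 51 and 69.1 CPM. Hagh rose by 0.54 (adjusted p = 0.0098) and Fahd1 fell by 0.60 (adjusted p = 0.0182), without overlap. The difference of 1.12 (SE 0.15, limma adjusted p = 0.000584) was 1.34 at 8 weeks (SE 0.26, limma adjusted p = 0.00803). Hagh lost its call at 4 weeks without Klf9KI heart 1 or 2, and Fahd1 on leaving out any 1 Klf9KI heart or Wt-Cre heart 1, while the difference passed under every alternative run. The bodies overlap.

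Tnfrsf12a, the receptor of the cytokine TWEAK, rose at 4 weeks while its neighbour Hcfc1r1 fell. Tnfrsf12a stood at 132, 135 and 136 CPM in Klf9KI hearts, compared with 38.5, 30.5 and 33.3 in Wt-Cre, and Hcfc1r1 at 36.7, 32 and 38.9 against 56, 51.9 and 62.6 CPM. The genotypes did not overlap. The log2 fold changes were 1.98 (SE 0.13, adjusted p = 4.51e-06) and −0.66 (SE 0.13, adjusted p = 0.00715), and the difference was −2.64 (SE 0.16, limma adjusted p = 1.64e-06). Sgsm2 and Tsr1 (−0.73 and 0.78) and Lpcat3 and Ptpn6 (−0.69 and 1.03) were the other protein-coding pairs with opposite calls named at 4 weeks. Their differences were −1.51 (limma adjusted p = 0.00185) and −1.63 (limma adjusted p = 0.00512) and passed under every alternative run, though each of the 4 separate calls was lost without 1 or another heart, Klf9KI heart 1 among them. Hcfc1r1 lost its call without Klf9KI heart 2. Ptpn6 encodes a phosphatase of blood cells. The sum of macrophage markers was higher at that age as given above, with 1 of 4 called, and their part in the rise of Ptpn6 was not tested. The region of Lpcat3 and Ptpn6 lies 49203 and 26402 bases from their starts, so both are listed neighbours.

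At 8 weeks Nt5dc2 and Stab1 had opposite calls. Their region lies −5717 bases from the start of Nt5dc2 and 39505 from that of Stab1, so both are listed neighbours. Stab1, a scavenger receptor of macrophages and sinusoidal endothelium, stood at 122, 156 and 133 CPM in Klf9KI hearts, compared with 79.9, 55.3 and 70.3 in Wt-Cre, and Nt5dc2 at 11.1, 6.95 and 6.26 against 29.3, 29.7 and 33.5 CPM. Stab1 rose by 1.0 (SE 0.20, adjusted p = 0.0103) and Nt5dc2 fell by 1.92 (SE 0.26, adjusted p = 0.0012), with no overlap. The difference was −2.96 (SE 0.33, limma adjusted p = 0.000206). The call of Stab1 was lost without Wt-Cre heart 2 or 3, and the bodies of the pair overlap. Macrophage markers ranged from 193 to 239 CPM in Klf9KI hearts, compared with 85.1 to 114 in Wt-Cre at 8 weeks, with 2 of 4 higher, and their part in the rise of Stab1 was not tested.

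In other pairs a single gene moved. Synpo2l, an actin-associated protein of heart and skeletal muscle, shares chr14:20674591-20674842 with Sec24c, a coat protein of vesicles that leave the ER. The region lies −6410 bases from the start of Synpo2l and 395 from that of Sec24c. At 8 weeks Synpo2l stood at 989, 982 and 748 CPM in Klf9KI hearts, compared with 147, 139 and 128 in Wt-Cre. Sec24c stood at 84.8, 96.9 and 92.8 against 102, 94 and 110 CPM, with overlap. Synpo2l rose by 2.72 (SE 0.21, adjusted p = 7.2e-05), and the difference from Sec24c was 2.86 (SE 0.23, limma adjusted p = 2.55e-05). At 4 weeks the difference was 1.87 (SE 0.19, limma adjusted p = 7.69e-05), and at 1 week −0.15 (limma adjusted p = 0.596). Rom1, a photoreceptor disc protein, and Eml3, a microtubule protein, start 196 bases apart. Rom1 fell by 1.33 at 8 weeks (adjusted p = 0.00519), from 28, 25.3 and 34.7 CPM in Wt-Cre to 13.6, 9.41 and 12 CPM in Klf9KI hearts. Eml3 overlapped between genotypes, and the difference was −1.94 (SE 0.28, limma adjusted p = 0.00141).

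Slc17a7, a vesicular glutamate transporter, and Aldh16a1 differed at every age. Their region lies −9506 bases from the start of Slc17a7 and 123 from that of Aldh16a1. Slc17a7 stood at 1.72, 0.504 and 1.82 CPM in Klf9KI hearts, compared with 8.71, 8.15 and 8.94 in Wt-Cre at 1 week, while Aldh16a1 stood at 22.6, 18.6 and 26.3 against 24, 19.7 and 29.6 CPM. The difference was 2.66 at 1 week (SE 0.41, limma adjusted p = 0.00241), 1.29 at 4 weeks (limma adjusted p = 0.00394) and 2.5 at 8 weeks (limma adjusted p = 0.00203). It passed under every alternative run at the 3 ages, though the fit of differences was not run with sex as a covariate.

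Gt(ROSA)26Sor, the non-coding gene often used as a site for transgenes, and Setd5, a chromatin regulator, start 32 bases apart inside chr6:113077094-113077843 (averages 28.7 in sham and 21.8 in TAC). A second region listed with both genes, chr6:113075870-113076617, had averages of 46.3 and 48.9. At 4 weeks Gt(ROSA)26Sor stood at 52.2, 55.3 and 54.5 CPM in Klf9KI hearts, compared with 7.27, 7.66 and 10.8 in Wt-Cre, and Setd5 at 78.5, 76.4 and 87.1 against 72.1, 78.8 and 88.8 CPM. Gt(ROSA)26Sor rose by 2.65 (SE 0.17, adjusted p = 4.16e-06), Setd5 overlapped, and the difference was 2.64 (SE 0.17, limma adjusted p = 1.64e-06). At 8 weeks Gt(ROSA)26Sor rose by 2.79 (SE 0.32, adjusted p = 0.000584). At 1 week it stood at 119, 134 and 121 CPM in Klf9KI hearts, compared with 11.6, 175 and 9.76 in Wt-Cre hearts 1, 2 and 3. Wt-Cre heart 2 lay above every Klf9KI heart for this gene, while its Klf9 of 21.9 CPM lay among the other Wt-Cre hearts. The log2 fold change was 0.92 (SE 1.3, adjusted p = 0.84) with all hearts and 3.54 (adjusted p = 5.99e-09) without Wt-Cre heart 2. Where the transgene was inserted is not given in the sources used here. Without that heart 32 genes of shared regions and 1 pair were called at 1 week.

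At 1 week Polr2l, a small subunit of RNA polymerases, and the tetraspanin Tspan4, whose starts lie 108 bases apart, both rose, by 0.50 (adjusted p = 0.0495) and 0.57 (adjusted p = 0.0284). Their region lies 7527 bases from the start of Polr2l and −7610 from that of Tspan4. C030006K11Rik rose by 0.72 (adjusted p = 0.0262) while Arhgap39, a GTPase-activating protein, fell by 1.09 (adjusted p = 0.0167). Their region lies −51 bases from the start of C030006K11Rik and 94274 from that of Arhgap39, a listed neighbour. The 4 separate calls were lost with sex as a covariate or without the Xist-carrying hearts. With the covariate the log2 fold change was 0.48 for Polr2l (adjusted p = 0.434), 0.60 for C030006K11Rik (adjusted p = 0.421) and −0.74 for Arhgap39 (adjusted p = 0.456). The genes with the largest falls at that age were Slc17a7 (−2.64), Lingo3 (−1.68), the liver-type glycogen phosphorylase Pygl (−1.39), the tubulin acetylase Atat1 (−1.31), the Rab regulator Sgsm2 (−1.23) and Arhgap39. Beside Klf9 (3.26), the largest rises were C030006K11Rik, the acyl-CoA dehydrogenase Acad11 (0.59), Tspan4, the lipase Abhd12 (0.53) and the stress-induced Manf (0.52). These lists rest on all hearts. With sex as a covariate, in a fit that rests on 1 Klf9KI heart, Slc17a7 was −2.24, Lingo3 −1.77, Pygl −1.51, Atat1 −1.23 and Sgsm2 −1.33. In the same fit Acad11 was 0.39, Tspan4 0.56, Abhd12 0.43 and Manf 0.52.

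At 4 weeks the largest rises among protein-coding genes of shared regions were in the interferon-induced Isg15 and the amino acid transporter Slc7a5. Isg15 stood at 37.5, 32.2 and 27.8 CPM in Klf9KI hearts, compared with 6.33, 5.51 and 2.48 in Wt-Cre (log2 fold change 2.77, SE 0.28, adjusted p = 0.000142). Slc7a5 stood at 30.2, 34 and 26.5 against 5.9, 5.08 and 5.05 CPM (2.5, SE 0.17, adjusted p = 6.22e-06). The RNA sensor regulator Dhx58 rose by 2.09, the immune checkpoint ligand Cd274 by 2.06, Tnfrsf12a by 1.98 and the peptidase Dpp7 by 1.68. The groups did not overlap, as the naming rule required. The listed region lay 2780 bases from the start of Isg15, −9613 from Dhx58, −5432 from Cd274, 3528 from Tnfrsf12a and −9366 from Dpp7. For Slc7a5 it lay −177 bases from the start. The falls included Dbp (−3.44), a clock output factor. It stood at 2.32, 3.07 and 3.47 CPM in Klf9KI hearts, compared with 9.5, 24.3 and 62.9 in Wt-Cre. The Wt-Cre hearts varied widely, and the call of Dbp was lost on leaving out any 1 Klf9KI heart. Nr4a3 (−2.20), the sorting receptor Sort1 (−1.70), the branched-chain acyl-CoA dehydrogenase Acadsb (−1.65) and the phosphatase Dusp18 (−1.62) followed. The listed region lay 10169 bases from the start of Dbp and −6367 from that of Nr4a3. For Sort1, Acadsb and Dusp18 it lay −73, 77 and 3 bases away.

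At 8 weeks the largest rises were in the collagen Col8a2 (3.03), Synpo2l (2.72), Loxl3 (2.61), Dok1 (2.06), Nmral1 (1.89) and Rtn4 (1.58), which shapes the endoplasmic reticulum. Col8a2 stood at 6.19, 14.8 and 4.91 CPM in Klf9KI hearts, compared with 1.05, 0.836 and 1.23 in Wt-Cre. Its region lies 34663 bases from its start. Those of Synpo2l and Nmral1 lie −6410 and −7313 bases from their starts, and those of Loxl3, Dok1 and Rtn4 lie within 1 kb. Rtn4 stood at 227, 308 and 214 against 76.1, 83.3 and 90.9 CPM. The largest falls were in Lingo3 (−3.98), Ctf1 (−3.69), Hrc (−2.1), Slc17a7 (−2.04), Acaa2 (−1.98) and Tlcd2 (−1.97). The listed region lay 17217 bases from the start of Lingo3, −4300 from Ctf1, −2059 from Hrc, −9506 from Slc17a7 and −6531 from Tlcd2. For Acaa2 it lay −214 bases from the start. Ctf1, the cytokine cardiotrophin, stood at 0.61, 0.477 and 0.293 CPM in Klf9KI hearts, compared with 6.4, 4.64 and 7.21 in Wt-Cre. Acaa2, the thiolase of mitochondrial beta-oxidation, stood at 303, 242 and 312 against 1249, 1160 and 960 CPM. Its listed neighbour Myo5b, a motor of vesicle recycling, starts 338261 bases away. Myo5b fell with Acaa2 at 4 weeks (by 1.48 and 0.94) but was 0.02 at 8 weeks. There the difference was 1.94 (SE 0.36, limma adjusted p = 0.00778).

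Gene families among the listed genes of shared regions were read as lists, each beside the median of all genes tested. That median was −0.01, 0.00 and 0.04 at 1, 4 and 8 weeks. Of all genes tested, edgeR called 1.68%, 13.4% and 10.5% at these ages, which is the background for every list that follows. Of 12 genes of respiratory complex I and its assembly at shared regions, 1 rose at 1 week, 1 fell at 4 weeks and 6 fell at 8 weeks, and the list median was 0.22, −0.21 and −0.85. The 6 were Ndufv2 (−1.03), Ndufs7 (−1.0), Ndufb8 (−0.87), Ndufaf2 (−1.20), Ndufv1 and Ndufb6. The listed region lay 24483 bases from the start of Ndufv2, 11601 from that of Ndufs7 and −7539 from that of Ndufb8. For Ndufaf2 it lay 47 bases away. Ndufv2 stood at 391, 263 and 385 CPM in Klf9KI hearts, compared with 768, 761 and 595 in Wt-Cre at 8 weeks. DESeq2's Wald test called 11 of the 12 at 8 weeks. The edgeR calls of Ndufv2, Ndufs7, Ndufb8 and Ndufaf2 were lost without Wt-Cre heart 1 or 2, those of Ndufs7 and Ndufaf2 also without Wt-Cre heart 3, and that of Ndufaf2 also without Klf9KI heart 1. Ndufv3 was the member that rose at 1 week, by 0.51 (adjusted p = 0.0252). Its log2 fold change was 0.53 with sex as a covariate (adjusted p = 0.314), and the call was also lost without most single hearts.

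Of 18 mitochondrial ribosomal proteins, 0 were called at 1 week by edgeR or by DESeq2, with 3 at an unadjusted p under 0.05. Mrpl41 and Mrps6 fell at 4 weeks, and Mrpl55, Mrps16, Mrpl41 and Mrpl18 fell at 8 weeks, with a list median of −0.65 at the last age, where DESeq2 called 10. Mrpl41 fell by 0.86 at 4 weeks (adjusted p = 0.00138) and by 0.86 at 8 weeks (adjusted p = 0.0327). Of 20 cytosolic ribosomal protein genes 19, 19 and 18 were tested and 0 were called at any age by edgeR or DESeq2, with medians of 0.18, 0.06 and −0.31 and 3, 0 and 0 genes at an unadjusted p under 0.05. Of 10 aminoacyl-tRNA synthetases Yars (0.59), Aars (0.54) and Mars (0.38) rose at 4 weeks, and 0 were called at 1 or 8 weeks by edgeR or DESeq2, with 0 and 4 at an unadjusted p under 0.05. All 3 are cytosolic enzymes, and their calls were lost without Klf9KI heart 1 or 2, that of Mars also without other hearts. Of 15 genes of DNA repair and replication the helicase subunits Mcm7 (1.26) and Mcm2 (1.16) rose at 4 weeks and the ligase Lig1 (1.36) at 8 weeks, the last lost on leaving out any 1 heart other than Klf9KI heart 2. Of 26 histone genes 7 were tested and 0 called by edgeR at any age, with 1, 1 and 0 at an unadjusted p under 0.05 and 0, 1 and 0 called by DESeq2. Of 33 zinc finger genes 32, 32 and 31 were tested, and Zfp651 was called alone, at 4 weeks, with a log2 fold change of −0.49 that was not called on leaving out any 1 Klf9KI heart. Histone genes are near-identical copies and lack poly-A tails for the most part, so their counts are uncertain.

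Of 10 genes from bidirectional pairs known from textbooks, 0 were called at 1 or 4 weeks by edgeR or DESeq2, with 3 and 4 at an unadjusted p under 0.05, and 4 were called at 8 weeks. Hspd1 and Hspe1, the mitochondrial chaperonin and its lid, start 111 bases apart at chr1:55087959-55088721. At 8 weeks Hspd1 stood at 192, 239 and 192 CPM in Klf9KI hearts, compared with 433, 398 and 328 in Wt-Cre, and Hspe1 at 90, 61.8 and 110 against 195, 196 and 142 CPM. Both fell without overlap, by 0.90 (SE 0.20, adjusted p = 0.0164) and 1.02 (SE 0.24, adjusted p = 0.0214), while Col4a1 and Col4a2 rose. The calls of Hspd1 and Hspe1 were lost without Klf9KI heart 1 or Wt-Cre heart 1 or 2. Surf1 with Surf2 and Gart with Son had no called member. The clock genes Dbp and Bhlhe40 both fell at 4 weeks, Bhlhe40 by 0.69 (adjusted p = 0.0113). Bhlhe40 rose at 8 weeks by 0.97 (adjusted p = 0.0322), a call lost on leaving out Klf9KI heart 1 or any 1 Wt-Cre heart.

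Genes of the regions with the highest Klf9 signal were called more often than those of the other regions at each age, a description with no test. Regions were split into 4 groups of like size by sham average, and each gene was placed by its region of highest signal. In the top group 3.4% of 618, 14.9% of 596 and 10.9% of 594 tested genes were called at 1, 4 and 8 weeks, against 1.09% to 1.56%, 10.2% to 11.3% and 6.72% to 9.6% in the other 3. Across all genes Spearman's rank correlation between the size of the log2 fold change and the sham average was 0.05, 0.05 and 0.02. The correlation between the log2 fold change of a gene and the log2 TAC over sham ratio of its region was −0.06, 0.04 and 0.07 across 2115, 2033 and 2029 genes. Genes of 1 region share its signal and all genes share the hearts, so these are descriptions.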

How the data were processed

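RNA was sequenced from 18 hearts, and the authors deposited gene counts per heart in 1 table per age. Per the submitters' processing notes, RNA was handled with HISAT2 2.0.5 after fastp, then featureCounts 1.5.0-p3, StringTie 1.3.3b and DESeq2 1.20.0, and chromatin with BWA and MACS2 2.1.0, on build mm10. The authors also deposited merged Klf9 regions with a signal (average and peak value) per library and log2 values that were not used for tests. The titles name total RNA while the protocol describes poly-T bead selection. Another 42 per-heart columns, of normalised counts and FPKM, were not used.

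Counts were tested per age in edgeR 4.0.16 (R 4.3.3) by the quasi-likelihood test with robust spread, filterByExpr, TMM scaling and Benjamini-Hochberg adjustment over all genes tested, with a call at 0.05. CPM values are scaled within an age. The difference within a pair was tested with limma 3.58.1 on within-pair log2 CPM differences (prior count 2) over all pairs that share any Klf9 region. DESeq2 1.42.0, other filters, 1 fit of all hearts, a sex covariate, replicate blocks and leaving out each heart were alternatives. The programs were tested on simulated data. Totals ranged from 17225388 to 32855383 counts at 1 week, 12086856 to 14890828 at 4 and 12543825 to 19912542 at 8. Chromatin signal had 1 library per condition and no test, and its depth is unknown.

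Regions, gene lists, sequences and tests were chosen with earlier results of these data known. Named genes were the 6 largest rises and falls per age among called protein-coding genes of at least 5 CPM in a group mean whose genotypes did not overlap, genes of named pairs, and called list members, up to 4 per list and age. Named pairs were picked by the size of their calls or of their difference at each age. A few genes that these rules name are not reported here. Date-like entries that stood for 25 gene symbols were set back to the names.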

Additional observations from a re-analysis of the deposited data

Results flagged for a closer look

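In 1 fit of all 18 hearts, the Klf9KI minus Wt-Cre difference was compared between ages for the 95 named genes with a test of the interaction (edgeR, Benjamini-Hochberg adjusted over all genes). It passed for 10 genes between 4 and 1 weeks, 40 between 8 and 1 weeks and 3 between 8 and 4 weeks, and each of these is listed because its response differed between ages. Values are log2 differences of the response, the later age minus the earlier. The named genes were chosen for their response at an age, so large differences between ages were favoured. Age and any batch that follows age cannot be told apart, and the 2 Xist-carrying Klf9KI hearts enter every contrast with 1 week.

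From 1 to 4 weeks the difference was more positive for Cd274 (3.17), Slc7a5 (2.60), Isg15 (2.57), Tnfrsf12a (1.85), Synpo2l (1.79), Tap1 (1.27) and Rtn4 (1.08). From 1 to 4 weeks the difference was more negative for Klf9 (−2.89), Hrc (−1.15) and Acaa2 (−1.08).

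From 1 to 8 weeks the difference was more positive for Col8a2 (3.46), Synpo2l (2.82), Loxl3 (2.56), Dok1 (2.25), Rtn4 (1.62), Slc7a5 (1.57), Col4a1 (1.45), Lig1 (1.39) and Col4a2 (1.34). It was likewise so for Sgsm2 (1.12) and Bhlhe40 (1.03). From 1 to 8 weeks the difference was more negative for Ctf1 (−2.48), Lingo3 (−2.34), Tlcd2 (−2.24), Acaa2 (−2.16), Klf9 (−2.11), Hrc (−1.97), Rom1 (−1.93), Eno3 (−1.55) and Ndufv2 (−1.42). It was likewise so for Ndufs7 (−1.41), Ndufv3 (−1.38), Fahd1 (−1.32), Nt5dc2 (−1.28), Ndufb8 (−1.24), Slc25a11 (−1.24), Pigp (−1.22) and Mrpl55 (−1.17). It was likewise so for Mrps16 (−1.14), Hadhb (−1.13), Hspe1 (−1.10), Mrpl18 (−1.10), Dusp18 (−1.09), Emc9 (−1.0), Hadha (−0.95), Kcnk3 (−0.95) and Hspd1 (−0.93). It was likewise so for Abhd12 (−0.93), C030006K11Rik (−0.92) and Acad11 (−0.86).

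From 4 to 8 weeks the difference was more positive for Loxl3 (1.97) and Bhlhe40 (1.63). From 4 to 8 weeks the difference was more negative for Acaa2 (−1.07).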

How the results depend on the processing

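The counts at 1 week depended most on the processing. Called genes of shared regions, 40 as reported, were 74 with the DESeq2 Wald test, 86 with no filter, 5 with all 18 hearts in 1 fit, 2 with sex as a covariate, 3 without the Xist-carrying hearts, and 13 to 32 with 1 heart left out. Pairs with both called, 3 as reported, were 6, 7, 0, 0 and 0 under the same settings, 1 without robust spread (a setting chosen after seeing the data) and 0 to 2 with 1 heart left out. The share of pairs was 0.307% with 3 or more promoters and 0% with starts within 1 kb. Differences within pairs ranged from 9 to 37 with 1 heart left out. At 4 weeks leaving out 1 heart gave 92 to 346 genes, 6 to 44 pairs and 92 to 264 differences. At 8 weeks it gave 44 to 271 genes, 1 to 40 pairs and 25 to 145 differences. All 18 hearts in 1 fit gave 452 genes and 74 pairs at 8 weeks, DESeq2 gave 29 pairs and no filter 27. There 1.9% of pairs with starts within 1 kb had both called, and 55.1% had the same sign. The median log2 TAC over sham ratio was −0.08 by peak value, −0.08 in regions present in both, −0.18 with 3 or more promoters and −0.03 relative to all regions. The cause was not tested. Same-numbered hearts share only a number: their deviations did not correlate above 0.1 in every pair, although at 8 weeks every heart correlated best with its own number. A replicate block gave 27, 320 and 230 genes, 2, 41 and 32 pairs, and 180 differences at 8 weeks. Of 168 named called values 75 passed in every setting run, 93 lost the call in some and 0 reversed. With 3 hearts per group and 1 chromatin library per condition, small differences were not detectable.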
